A study of Mus musculus with 11 samples.

Results

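Aminoacyl-tRNA synthetases are the enzymes that join each amino acid to its transfer RNA, and so supply the charged tRNAs used by ribosomes. One set works in the cytosol and a second, encoded by separate nuclear genes, is imported into mitochondria to serve the mitochondrial ribosome, while *Gars* and *Kars* each encode both forms. Many cytosolic synthetase genes are known targets of ATF4, the transcription factor that is made when the endoplasmic reticulum stress kinase PERK, or another eIF2alpha kinase such as the sensor of uncharged tRNA GCN2, slows translation. Inherited defects in several synthetases cause deafness in people.

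The synthetases were taken by symbol from the gene tables, as every gene named by 1 amino acid letter followed by ars, with or without a final 1 or 2, together with *Eprs*, *Farsa* and *Farsb*. This gave 37 genes of 18667 in the tables. The 17 whose symbols end in 2 were taken as mitochondrial and the other 20 as cytosolic or dual. All 37 were among the 16169 genes that reached a mean of 0.1 FPKM over all libraries and were tested. FPKM is the number of fragments per kilobase of transcript scaled to the mapped fragments of the library, so levels can be set side by side between genes.

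The RNA came from whole cochleae taken at 2 months of age from C57BL/6J background mice, with 5 libraries of Atf6+/+ and 6 of Atf6-/- littermates, which the study plots as individual cochleae. In the mutant line a stop codon introduced early in *Atf6* abolishes the protein. Both genotypes share the *Cdh23* ahl allele of C57BL/6J, which limits hearing in older animals of that strain. Neither the labels nor the methods say whether 2 cochleae came from 1 mouse, so p-values measure the spread between these samples. In bulk cochlea, fewer cells of a type and less RNA per cell cannot be told apart.

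FPKM summed to between 474616 and 537926 in the Atf6+/+ and between 462005 and 502419 in the Atf6-/- libraries, and read depth was not known, so no counting error is given. *Atf6* itself was measured at 9.52 ± 1.11 FPKM (SD) over the 5 Atf6+/+ libraries and at 4.26 ± 0.285 FPKM (SD) over the 6 Atf6-/- libraries, and the groups did not overlap. All 13 cochlear markers, among them *Otos*, *Coch* and *Slc26a5*, were tested, and none was at 0 in all libraries. Of these 13, 12 had positive fold changes and 3 were called higher, with a median log2 fold change of 0.322. Of 5 myelin markers 2 were called higher, with a median of 0.091, and of 6 neuron markers 1 was called lower, with a median of -0.064. Of 8 bone, 7 macrophage and 8 skeletal muscle markers 0 were called, with medians of -0.43, -0.20 and 0.146, and the summed muscle level of 1 Atf6-/- library, 43.8 FPKM, stood far above the Atf6-/- median of 2.81 FPKM. The part of these markers in the synthetase results was not tested. Bone marrow markers also moved with genotype. Of 10 neutrophil markers 6, of 8 B lineage markers 2 and of 9 erythroid markers 8 were lower in Atf6-/- cochleae by the rule given in the next paragraph, and none was higher. Their summed levels ran from 283 to 3530, from 31.7 to 56.0 and from 4840 to 46400 FPKM in Atf6+/+ libraries and from 114 to 1310, from 30.5 to 40.1 and from 2870 to 9390 FPKM in Atf6-/- libraries. No defining marker of these lists was at 0 in all libraries. The part of the marrow markers in the synthetase results was examined only by a fit with a marrow score, whose values are given beside the called genes.

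The comparison asked whether loss of *Atf6* changed the synthetase genes, and whether the cytosolic and mitochondrial sets differed in this. A group of 5 cytosolic synthetases was higher in Atf6-/- cochleae, *Cars*, *Mars1*, *Aars*, *Iars* and *Yars*, by 0.14 to 0.36 on the log2 scale. A gene was called when its limma p was at most 0.05 without adjustment and its absolute log2 fold change was above 0.05. These are the thresholds of the study, which took its p-values from DESeq2 and not from limma, so the genes called need not be the same. By DESeq2 the paper reported *Cars*, *Aars* and *Nars* among the endoplasmic reticulum stress response genes altered between genotypes. With all libraries no synthetase was called lower, although 16 of the 37 had negative fold changes, and 0 of the 17 mitochondrial ones were called in either direction. By this rule 5 of 37 synthetases (13.5%) were called, against 9.85% of all genes tested. In the upward direction 5 of 20 cytosolic or dual synthetases (25.0%) were called, against 4.48% of all genes, and in the downward direction 0 of 37, against 5.37%. After Benjamini-Hochberg adjustment over all genes tested, limma called 0 synthetases with an adjusted p under 0.05, against 0.068% of all genes, and the smallest adjusted p was that of *Cars*, 0.0729. For 3 synthetases, all higher, every Atf6-/- value was above every Atf6+/+ value, which held in 1.25% of all genes in either direction, 0.643% upward and 0.606% downward.

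*Cars* (NCBI gene 27267), which charges cysteine, had 13.55, 16.2, 14.36, 16.5 and 14.95 FPKM in the 5 Atf6+/+ cochleae. The 6 Atf6-/- cochleae had a lowest value of 18.11, a median of 19.6 and a highest value of 20.35 FPKM. All Atf6-/- values were therefore above all Atf6+/+ values. The means of 15.1 ± 1.24 FPKM (SD, n = 5) and 19.3 ± 1.01 FPKM (SD, n = 6) differed by 0.36 as a log2 fold change (95% interval 0.22 to 0.49, exact permutation p = 0.00433, limma adjusted p = 0.0729). The exact permutation test was two-sided and run over libraries, and 0.00433 is the smallest p it can give. Here and in every value that follows, log2 fold changes are Atf6-/- against Atf6+/+ on the log2(FPKM + 0.1) scale.

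*Mars1* (NCBI gene 216443), which charges methionine and so also supplies the initiator tRNA, had 17.44, 19.41, 17.38, 20.64 and 18.21 FPKM in Atf6+/+ cochleae. In Atf6-/- cochleae its values ran from 21.13 to 23.6 FPKM with a median of 22.2 FPKM. Again no Atf6-/- value reached down to the Atf6+/+ range. The log2 fold change was 0.26 (95% interval 0.15 to 0.38, exact permutation p = 0.00433, limma adjusted p = 0.133). In the GENCODE M21 annotation, 68 exonic bases of *Mars1* are shared on the opposite strand with *Ddit3*, the gene of the stress factor CHOP. *Ddit3* itself was not called and had a log2 fold change of -0.22.

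*Iars* (NCBI gene 105148), which charges isoleucine, had 23.27, 24.37, 24.18, 21.2 and 20.52 FPKM in Atf6+/+ cochleae and from 24.72 to 26.76 FPKM, with a median of 25.3 FPKM, in Atf6-/- cochleae. The lowest Atf6-/- value lay just above the highest Atf6+/+ value. Its log2 fold change was 0.17 (95% interval 0.05 to 0.28, exact permutation p = 0.00433, limma adjusted p = 0.399).

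*Aars* (NCBI gene 234734), which charges alanine, had 67.37, 75.03, 71.17, 79.98 and 64.87 FPKM in Atf6+/+ cochleae and from 77.43 to 89.69 FPKM, with a median of 80.7 FPKM, in Atf6-/- cochleae. Here the groups overlapped, with 4 of 6 Atf6-/- values above the highest Atf6+/+ value, that of replicate 4. The log2 fold change was 0.19 (95% interval 0.07 to 0.32, exact permutation p = 0.0130, limma adjusted p = 0.380). The value of *Aars* is uncertain in one respect, because 1326 of its annotated exonic bases are shared on the same strand with *Exosc6*, an RNA exosome subunit. *Exosc6* was not called, at 8.15 ± 1.14 FPKM (SD, n = 5) and 7.44 ± 1.63 FPKM (SD, n = 6).

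*Yars* (NCBI gene 107271), which charges tyrosine, had 46.17, 47.99, 47.42, 54.01 and 49.21 FPKM in Atf6+/+ cochleae and from 50.2 to 58.07 FPKM, with a median of 54.1 FPKM, in Atf6-/- cochleae. Only replicate 4 of the Atf6+/+ group lay within the Atf6-/- range. The log2 fold change was 0.14 (95% interval 0.03 to 0.25, exact permutation p = 0.0216, limma adjusted p = 0.431). With the marrow score, the mean log2 level of the neutrophil, B lineage and erythroid markers, added to the model, *Yars* was no longer called (log2 fold change 0.13, limma adjusted p = 0.943). In that fit *Cars*, *Mars1*, *Aars* and *Iars* were still called, at 0.33, 0.26, 0.19 and 0.17 on the log2 scale (limma adjusted p = 0.853, 0.853, 0.896 and 0.913).

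**Figure D1:**
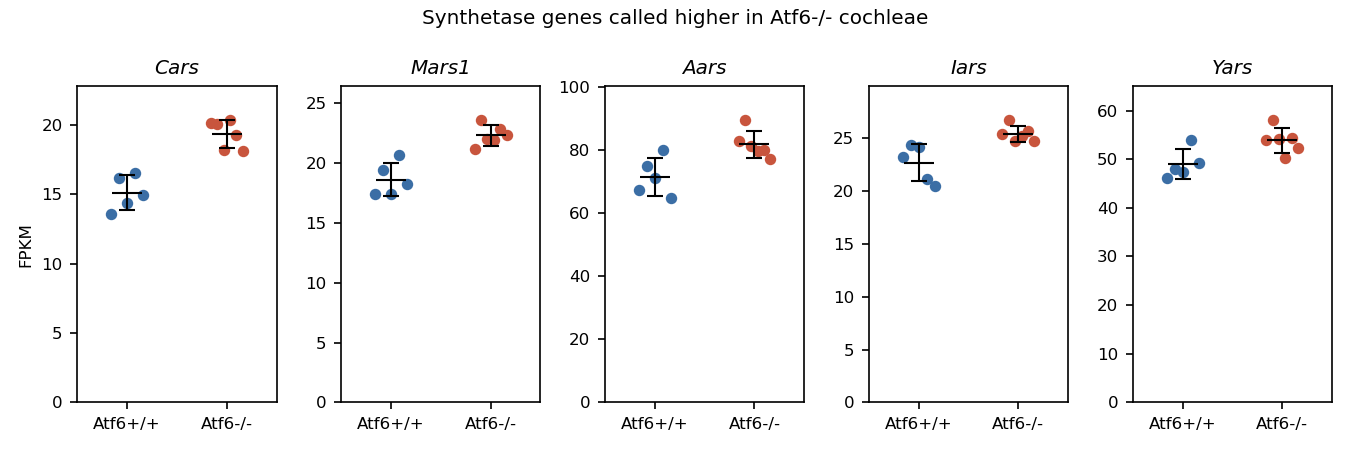
Level of the 5 called synthetases in FPKM (vertical axes, each from 0) in each of 5 Atf6+/+ (blue) and 6 Atf6-/- (red) cochleae, with the mean and SD in black. For *Cars*, *Mars1* and *Iars* the 6 Atf6-/- points lie above all Atf6+/+ points, while for *Aars* and *Yars* the highest Atf6+/+ point falls among them.

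The promoters of the synthetases were searched for the core of the C/EBP-ATF response element, the site at which ATF4 and its partners bind, written as TGATGNAA or, read on the other strand, TTNCATCA, where N is any base. These motifs do not overlap another motif searched. The windows held 250 bases before and 50 bases after the start of each gene, from RefSeq on GRCm38.p6, and windows were at hand for 13 cytosolic or dual and 14 mitochondrial synthetases. The core was found in 5 of the 13 (38.5%), those of *Aars*, *Gars*, *Iars*, *Tars* and *Yars*, and in 0 of the 14 mitochondrial windows, against 1219 of 27025 genes (4.51%) over all windows and 377 of 12726 (2.96%) among the genes tested. Of the 5 called genes, 4 had a window and 3 of these held the core. *Mars1* had a window without these letters, and *Cars* had no window. *Gars* and *Tars* held the core and were not called. For each of these 5 genes the 30 bases around 1 match, not necessarily the only one, are shown in the direction of the gene, with the matched core in capitals, since they let the sites of the called and uncalled genes be read side by side.
Aars, chr8:111033840-111033869, + strand, core from base 10 of the transcript: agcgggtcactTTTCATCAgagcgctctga
Iars, chr13:49682126-49682155, + strand, core from base 8 of the transcript: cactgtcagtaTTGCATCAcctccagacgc
Yars, chr4:129189895-129189924, + strand, core from base 4 of the transcript: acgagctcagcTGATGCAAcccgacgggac
Gars, chr6:55037960-55037989, + strand, core from 30 bases before the start: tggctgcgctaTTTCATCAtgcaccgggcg
Tars, chr15:11399655-11399684, - strand, core from 15 bases before the start: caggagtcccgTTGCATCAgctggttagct

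Fold changes were next set out for all 20 cytosolic or dual synthetases. Of these, 14 had a positive and 6 a negative log2 fold change, with a median of 0.035, against -0.013 for all genes tested. Leaving out 1 library moved this median to between 0.018, without Atf6-/- replicate 2, and 0.053, without Atf6-/- replicate 6. The 13 known as ATF4 targets were *Aars*, *Cars*, *Eprs*, *Gars*, *Iars*, *Lars*, *Mars1*, *Nars*, *Sars*, *Tars*, *Vars*, *Wars* and *Yars*. Positive fold changes were found for 12 of the 13, and for 7324 of the 16169 genes tested. Of the 13, 5 (38.5%) were called higher, against 4.48% of all genes, and the median was 0.117. The other 7, *Dars*, *Farsa*, *Farsb*, *Hars*, *Kars*, *Qars* and *Rars*, had a median of -0.017 with 2 positive and 0 called. This division of the genes was made with their fold changes known, and it carries no test.

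*Nars*, *Gars* and *Sars*, which charge asparagine, glycine and serine, had fold changes between 0.11 and 0.14 on the log2 scale and were not called. *Nars*, the most abundant synthetase, had 108.1, 114.98, 115.96, 121.98 and 101.88 FPKM in Atf6+/+ cochleae and from 111.62 to 141.21 FPKM, with a median of 123 FPKM, in Atf6-/- cochleae. The groups overlapped, with 3 Atf6-/- values above the Atf6+/+ range, and the log2 fold change was 0.14 (95% interval -0.01 to 0.29, exact permutation p = 0.0693, limma adjusted p = 0.505). *Gars* had 96.58, 107.1, 108.49, 121.32 and 93.69 FPKM in Atf6+/+ cochleae and from 100.77 to 128.34 FPKM, with a median of 114 FPKM, in Atf6-/- cochleae. One Atf6-/- value passed the highest Atf6+/+ value, and the log2 fold change was 0.12 (95% interval -0.04 to 0.28, exact permutation p = 0.177, limma adjusted p = 0.595). *Sars* had a log2 fold change of 0.11 (95% interval -0.02 to 0.23, exact permutation p = 0.0952, limma adjusted p = 0.539). The intervals of all 3 include the fold changes of *Aars* and *Iars*.

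Atf6+/+ replicate 4 held the highest Atf6+/+ value of 13 of the 20 cytosolic or dual synthetases, and Atf6-/- replicate 2 the highest Atf6-/- value of 12. Without Atf6+/+ replicate 4, the count of called synthetases rose from 5 to 9, while the share of all genes called went from 9.85% to 8.45%. The added ones were *Nars*, *Gars* and *Sars*, at 0.17, 0.17 and 0.15 on the log2 scale, and *Dars*, at -0.13 (limma adjusted p = 0.568, 0.568, 0.518 and 0.558). Without each of the other libraries in turn, between 5 and 6 were called, with *Cars*, *Mars1*, *Aars*, *Iars* and *Yars* among them each time.

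The remaining cytosolic or dual synthetases lay within 0.11 of 0 on the log2 scale. *Eprs*, which charges glutamate and proline with a single protein, and *Tars*, which charges threonine, had log2 fold changes of 0.05 each. *Wars*, which charges tryptophan, and *Farsa*, the catalytic subunit for phenylalanine, had 0.02 each, while *Farsb*, the other subunit, had -0.004. Glutamine, valine and leucine, charged by *Qars*, *Vars* and *Lars*, gave 0.008, -0.003 and 0.001. The most negative were *Dars*, which charges aspartate, at -0.10 (95% interval -0.22 to 0.02) and *Rars*, which charges arginine, at -0.07 (95% interval -0.17 to 0.03). *Dars* was below the Atf6+/+ mean in 6 of 6 Atf6-/- cochleae. Signs this close to 0 depended on the scaling between libraries: *Farsb* and *Vars* were positive after median-of-ratios scaling, and *Hars*, *Kars*, *Farsb* and *Vars* after rescaling to TPM, which divides each library by its FPKM sum.

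**Figure D2:**
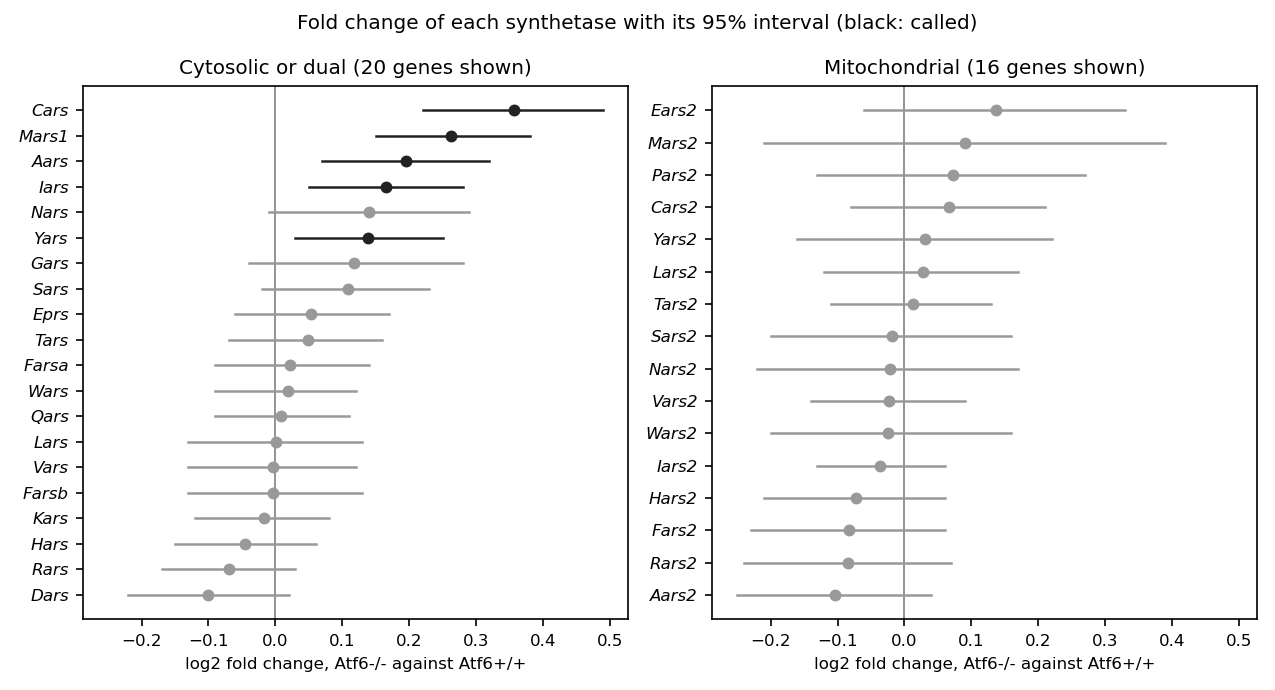
Log2 fold change of each synthetase gene, Atf6-/- against Atf6+/+ (horizontal axis), with its 95% interval, for 20 cytosolic or dual (left) and 16 mitochondrial (right) genes in the order of their fold changes. The 5 called genes, in black, are all on the left, and every mitochondrial interval drawn crosses 0.

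In mammals, 8 of the cytosolic synthetases are held in 1 large multisynthetase complex, built on the scaffold proteins AIMP1, AIMP2 and EEF1E1. Of these 8, *Eprs*, *Iars*, *Lars*, *Mars1*, *Qars*, *Rars*, *Kars* and *Dars*, 2 were called higher, *Mars1* and *Iars*, against 4.48% of all genes, and the median log2 fold change was 0.004. The scaffold gene *Aimp1* was lower, with a mean that went from 34.4 ± 0.427 FPKM (SD, n = 5) down to 31.3 ± 2.11 FPKM (SD, n = 6) and a log2 fold change of -0.14 (exact permutation p = 0.00866, limma adjusted p = 0.421). *Eef1e1* and *Aimp2* had log2 fold changes of -0.09 and -0.01 and were not called. Synthetases also fall into class I and class II by the fold of their catalytic domain, and *Eprs* has a domain of each. Of the 18 class I genes 4 (22.2%) were called, all higher, *Cars*, *Mars1*, *Iars* and *Yars*, with a median log2 fold change over the class of 0.023. Of the 18 class II genes 1 (5.56%) was called higher, *Aars*, close to the 4.48% of all genes, with a median of -0.011. No test of the difference between complex and free synthetases or between classes was made.

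Over the 17 mitochondrial synthetases the median log2 fold change was -0.022, with 7 positive and 10 negative values that ran from -0.10 to 0.14. Leaving out 1 library moved this median to between -0.026 and -0.001, with -0.001 without Atf6-/- replicate 6, -0.003 without Atf6+/+ replicate 4 and -0.006 without Atf6+/+ replicate 5. After rescaling to TPM their median turned to 0.033, while that of all genes turned from -0.013 to 0.043. The largest positive fold change was that of *Ears2*, which charges glutamate in mitochondria. It had 2.43, 1.93, 2.53, 2.12 and 2.44 FPKM in Atf6+/+ cochleae and from 2.37 to 2.68 FPKM, with a median of 2.54 FPKM, in Atf6-/- cochleae. The groups overlapped although 6 of 6 Atf6-/- values were above the Atf6+/+ mean, and the log2 fold change was 0.14 (95% interval -0.06 to 0.33, exact permutation p = 0.0952, limma adjusted p = 0.602).

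*Aars2*, for mitochondrial alanine, had 11.67, 10.61, 11.67, 13.56 and 11.88 FPKM in Atf6+/+ cochleae and from 10.5 to 12.39 FPKM, with a median of 10.7 FPKM, in Atf6-/- cochleae. The resulting fold change was -0.10 on the log2 scale (95% interval -0.25 to 0.04, exact permutation p = 0.16, limma adjusted p = 0.602), the most negative of the mitochondrial set. *Mars2*, for mitochondrial methionine and the least abundant synthetase, had 1.98, 1.93, 1.84, 1.33 and 1.75 FPKM in Atf6+/+ cochleae and from 1.44 to 2.19 FPKM in Atf6-/- cochleae. The resulting log2 fold change was 0.09 with a wide 95% interval of -0.21 to 0.39. The values of both genes overlapped between genotypes. For the other mitochondrial genes, among them *Fars2* and *Rars2* at -0.08 each and *Cars2* and *Pars2* at 0.07 each, log2 fold changes lay between -0.08 and 0.07.

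For 14 amino acids there was 1 gene of each class, which lets the compartments be compared amino acid by amino acid. In Atf6+/+ cochleae the cytosolic gene had the higher mean FPKM in 13 of the 14 pairs, by a median factor of 4.53. The range was from 0.847 for *Iars* against *Iars2* (22.7 and 26.8 FPKM) to 48.5 for *Nars* against *Nars2* (113 and 2.32 FPKM). In 12 of the 14 pairs the cytosolic gene had the more positive log2 fold change. For *Wars*, *Hars*, *Tars*, *Vars* and *Rars* the gap to the mitochondrial gene was small, from 0.01 to 0.04. For alanine the values were 0.19 and -0.10, for cysteine 0.36 and 0.07, for isoleucine 0.17 and -0.04, and for methionine 0.26 and 0.09. For leucine the order was the other way, with 0.001 for *Lars* and 0.03 for *Lars2*. The log2 ratio of *Iars* to *Iars2* was between -0.35 and -0.14 in Atf6+/+ and between -0.12 and 0.07 in Atf6-/- libraries, the only ratio of the 14 whose values did not overlap between genotypes. *Iars2* shares 2034 exonic bases on the opposite strand with *Rab3gap2* in GENCODE M21, and whether counting used strand is not known, so its level and this ratio are uncertain. The level of *Cars2*, which shares 422 bases on the opposite strand with *Naxd*, is uncertain for the same reason. That of *Aars* is uncertain through the 1326 bases shared on the same strand with *Exosc6*. The ratio of *Aars* to *Aars2* met at the edge, at up to 2.81 in Atf6+/+ and from 2.81 upward in Atf6-/- libraries. These ratios are given as a description and were not tested.

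**Figure D3:**
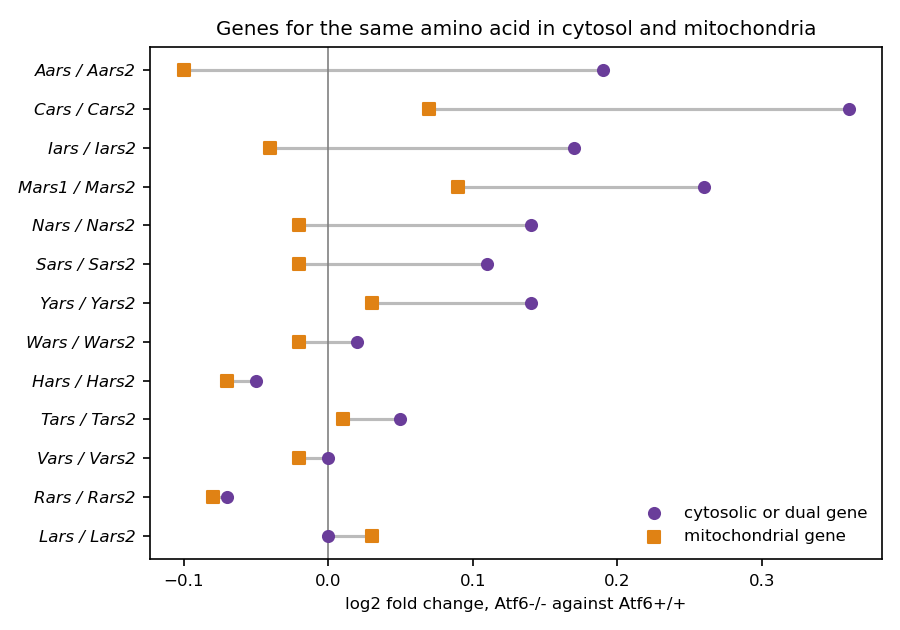
Log2 fold change, Atf6-/- against Atf6+/+ (horizontal axis), of the cytosolic or dual gene (purple circle) and the mitochondrial gene (orange square) for 13 amino acids, ordered by the gap between them. The circle is to the right of the square in 12 pairs, with the widest gaps for alanine and cysteine.

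Levels differed far more between genes than between genotypes. The order by mean FPKM over all libraries began with *Nars* (119 FPKM), *Gars* (110 FPKM) and *Aars* (77.3 FPKM), whose first and second places overlapped in range, and went on with *Sars* and *Kars*, at 56.8 and 56.7 FPKM, which did not differ beyond their spread. Cytosolic or dual synthetases had a median level of 29.6 FPKM and ran down to 11.7 FPKM for *Lars*. Mitochondrial synthetases had a median of 8.25 FPKM and ran from 1.83 FPKM for *Mars2* to 26.4 FPKM for *Iars2*. *Cars* and *Mars1*, with the largest fold changes, were 19th and 16th of 37 by level. Within a genotype the coefficient of variation of a cytosolic or dual synthetase had a median of 6.28% in Atf6+/+ and 5.34% in Atf6-/- cochleae, and that of a mitochondrial one 8.03% and 6.75%.

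Synthetases tied to inherited deafness formed a set of 5. *Hars*, *Hars2*, *Kars* and *Lars2* correspond to genes of the hereditary hearing loss panel with which the siblings among the study's patients were examined. *NARS2* is another recessive deafness gene. None of the 5 was called, where 9.85% of all genes were, so that a count of 0 in so few genes says little, and their median log2 fold change was -0.022. *Hars*, whose human gene is linked to a form of Usher syndrome, had 39.38, 37.71, 42.3, 41.93 and 40.38 FPKM in Atf6+/+ cochleae and from 36.4 to 41.96 FPKM, with a median of 39.6 FPKM, in Atf6-/- cochleae. The groups overlapped, and the log2 fold change was -0.05 (95% interval -0.15 to 0.06) but 0.011 after rescaling to TPM. *Kars*, the dual lysine enzyme, had 57.34, 56.95, 55.0, 59.72 and 56.35 FPKM in Atf6+/+ cochleae and from 52.54 to 59.49 FPKM, with a median of 57.3 FPKM, in Atf6-/- cochleae. This gave a log2 fold change of -0.02 (95% interval -0.12 to 0.08) and 0.039 after rescaling to TPM.

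*Hars2* and *Lars2*, whose human genes are linked to Perrault syndrome of deafness and ovarian failure, were among the less abundant synthetases. *Hars2* had 7.6, 7.56, 7.57, 7.3 and 8.95 FPKM in Atf6+/+ cochleae and from 7.17 to 7.74 FPKM, with a median of 7.31 FPKM, in Atf6-/- cochleae. Apart from the high Atf6+/+ replicate 5 the groups covered much the same range, and the log2 fold change was -0.07 (95% interval -0.21 to 0.06). *Hars* and *Hars2* share 195 exonic bases on opposite strands in GENCODE M21. *Lars2* had 7.66, 7.94, 7.75, 7.68 and 6.95 FPKM in Atf6+/+ cochleae and from 6.95 to 8.56 FPKM in Atf6-/- cochleae, which is 0.03 on the log2 scale (95% interval -0.12 to 0.17). *Nars2* had 2.31, 2.16, 2.58, 2.03 and 2.53 FPKM in Atf6+/+ cochleae and from 2.03 to 2.42 FPKM in Atf6-/- cochleae, which is -0.02 on the log2 scale (95% interval -0.22 to 0.17) and 0.033 after rescaling to TPM. For these 5 genes a change as large as that of *Cars* lay outside the interval.

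Class means were then followed library by library, as the mean log2 level of a list relative to its Atf6+/+ mean. The 13 cytosolic synthetases known as ATF4 targets lay between -0.077 and 0.098 in Atf6+/+ libraries and between 0.047 and 0.221, with a median of 0.119, in Atf6-/- libraries. The ranges overlapped, and 4 of 6 Atf6-/- libraries were above the highest Atf6+/+ library. The 7 other cytosolic or dual synthetases lay between -0.026 and 0.046 and between -0.135 and 0.039, with Atf6-/- replicates 5 and 6 below all Atf6+/+ libraries. Mitochondrial synthetases lay between -0.040 and 0.038 and between -0.049 and 0.036. The cytosolic minus the mitochondrial mean was between -0.090 and 0.065 in Atf6+/+ and between 0.022 and 0.122 in Atf6-/- libraries, with 4 of 6 Atf6-/- libraries above the Atf6+/+ range. In 3 of these 4 measures Atf6-/- replicate 6 was the lowest Atf6-/- library.

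**Figure D4:**
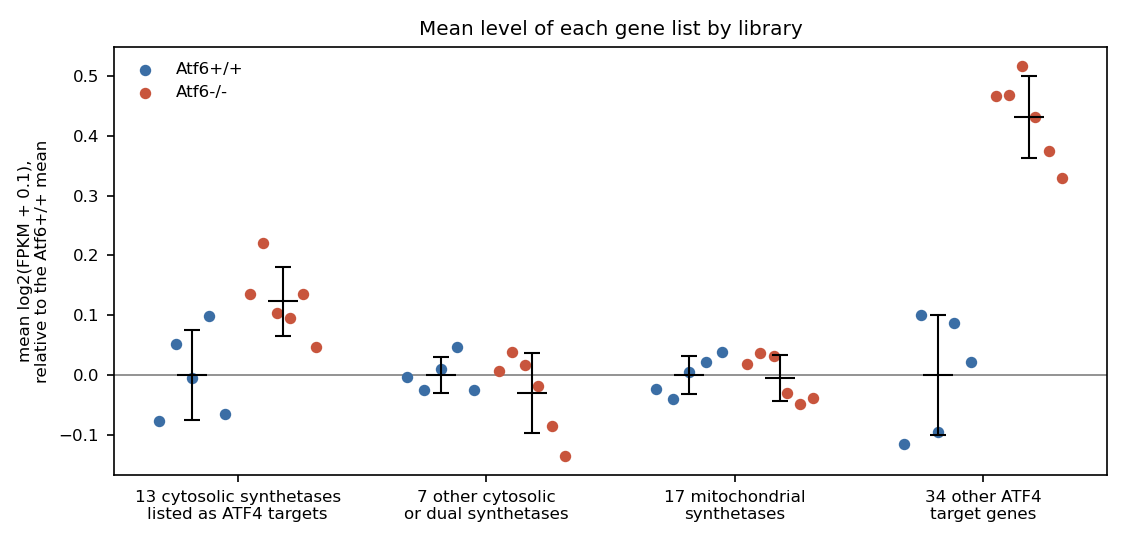
Mean log2(FPKM + 0.1) of 4 gene lists in each library (vertical axis), relative to the mean of the Atf6+/+ libraries, for 5 Atf6+/+ (blue) and 6 Atf6-/- (red) cochleae, with the mean and SD in black. The 34 other ATF4 targets separate the genotypes, with Atf6-/- libraries from 0.330 to 0.516, while the 3 synthetase lists overlap between genotypes.

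For context, ATF4 targets outside the synthetases were counted from a list of 34 genes for amino acid synthesis, amino acid transport and stress signalling. Of the 34, 21 (61.8%) were called higher, against 4.48% of all genes, and 0 lower. Negative fold changes were found for 5, among them *Atf3* at -0.26 and *Ddit3* at -0.22 on the log2 scale. The median log2 fold change was 0.307, against 0.117 for the 13 synthetases listed as ATF4 targets. The list of 34 was drawn up with earlier results of these data known, and it carries no test. *Atf4* itself was called, with a log2 fold change of 0.19 (exact permutation p = 0.0736, limma adjusted p = 0.495). Among the 22 partners of cytosolic tRNA charging 0 were called higher and 2 lower (9.09%, against 9.85% of all genes called in either direction), *Aimp1* and *Eef1b2*, a subunit of the exchange factor that recharges eEF1A with GTP, which had a log2 fold change of -0.16 (exact permutation p = 0.0476, limma adjusted p = 0.475). The elongation factor gene *Eef1a1*, whose product carries charged tRNA to the ribosome, had 1780 and 1860 FPKM and was not called. *Xpot*, which exports tRNA from the nucleus, and *Eif2ak4*, which encodes GCN2, had log2 fold changes of 0.10 and 0.03. Among the 20 mitochondrial partners, which act on mitochondrial tRNA or as factors of mitochondrial translation, 17 had negative fold changes, as had 8845 of the 16169 genes tested, and 1 was called (5.0%, against 9.85% of all genes), *Trnt1*, the enzyme that adds the CCA end to which amino acids are attached. It had a log2 fold change of -0.20 (exact permutation p = 0.0303, limma adjusted p = 0.481).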

How the data were processed

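RNA-Seq of whole cochleae was available as gene tables for 5 Atf6+/+ and 6 Atf6-/- libraries, grouped by their titles. The authors aligned stranded mRNA reads to GRCm39 with HISAT2 (2.0.4) and deposited RSEM estimates as FPKM with 2 decimals, without scaling to a common sum. RSEM is version 1.2.12 in the submitters' processing notes, and the paper names another. Whether counting used strand is not given in the sources used here. All columns were used. The paper gives a nominal number of reads per sample, but the depth of each library was unknown. The number of libraries limits the precision.

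Tables were joined by gene identifier, 0.1 was added before log2 transformation, and the genes averaging 0.1 FPKM or more were fitted with limma 3.58.1 (R 4.3.3), with genotype as the only term and a trend of variance with level, and p-values were adjusted by Benjamini-Hochberg over 16169 genes. Single genes were also compared by an exact permutation test over the 462 assignments of libraries to genotypes. Alternatives were other pseudocounts, filters and scalings, a replicate block, a marrow score and leaving out each library. Each Atf6+/+ value and the range of the Atf6-/- values were given for some synthetases. These were the called ones, those tied to deafness, the 3 most abundant and the 3 of each class with the largest fold changes. The members and lists were chosen with earlier results of these data known. Promoter sequences are from RefSeq (GRCm38.p6), and exon overlaps from GENCODE M21 (GRCm38), not the authors' GRCm39. Other steps ran in Python 3.11.15 (matplotlib 3.10.9, scipy 1.17.1, pandas 2.3.3). Single values of 1 mitochondrial synthetase, which counts in the totals, and part of a promoter are not reported here.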

Additional observations from a re-analysis of the deposited data

Results flagged for a closer look

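A library that stood apart from the rest of its group was looked for in 74 groups of values, 37 synthetases in each genotype, and was found in 2. Chance gives about 1 in 20 groups. For *Hars2*, Atf6+/+ replicate 5 was the highest at 8.95 FPKM, and for *Lars2* the same library was the lowest at 6.95 FPKM. Neither gene was called with or without this library.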

How the results depend on the processing

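*Cars*, *Mars1*, *Aars* and *Iars* were called under each of 8 other settings and without each of the 11 libraries. *Yars* was called without each library and in 6 of the 8, but not with the replicate block (0.15) or the marrow score (0.13). Adjusted over all genes, 0 synthetases had an adjusted p under 0.05 in any fit, and that of *Cars* ran from 0.0607 to 0.853 under the 8 and from 0.0557 to 0.187 without 1 library. The count of called synthetases was 7 after rescaling to TPM and 4 with the replicate block or the marrow score, and ran from 5 to 9 without 1 library, with 9 without Atf6+/+ replicate 4. The share of all genes called was 11.3%, 6.67% and 5.45% in the first 3 of these fits and from 7.4% to 11.5% without 1 library. Rescaling to TPM moved the cytosolic median to 0.092 and the mitochondrial median to 0.033, along with the median of all genes, and moved the calls over all genes from 724 higher and 868 lower to 1389 and 439. *Nars* (0.20) and *Sars* (0.16) were then called, as was *Nars* (0.15) with median-of-ratios scaling, which gave 874 higher and 763 lower over all genes. Replicate numbers pair nothing known: correlations of deviations between same-numbered libraries ran from -0.21 to 0.119. The block also takes out Atf6-/- replicate 6, which has no Atf6+/+ partner, so its fold changes are those without that library. Set against the fit without that library, which called 6, the block lost *Nars* and *Yars*, and against all libraries it changed only the call of *Yars*.

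Only synthetases that were not called changed sign. With TPM the values were 0.053 for *Farsb*, 0.011 for *Hars*, 0.039 for *Kars*, 0.054 for *Vars*, 0.020 for *Iars2*, 0.033 for *Nars2*, 0.039 for *Sars2*, 0.033 for *Vars2* and 0.031 for *Wars2*. Median-of-ratios scaling gave 0.008 for *Farsb* and 0.009 for *Vars*. The replicate block, like leaving out Atf6-/- replicate 6 alone, gave 0.032 for *Farsb*, 0.003 for *Kars* and 0.010 for *Nars2*. The marrow score gave -0.059 for *Lars*, -0.025 for *Qars*, -0.018 for *Tars*, 0.071 for *Vars*, 0.076 for *Sars2* and -0.017 for *Yars2*. Without 1 library, signs changed within -0.038 to 0.032 for *Farsb*, -0.010 to 0.036 for *Qars*, -0.004 to 0.042 for *Wars*, -0.017 to 0.048 for *Tars2*, -0.027 to 0.031 for *Lars*, -0.042 to 0.034 for *Vars*, -0.067 to 0.016 for *Nars2*, -0.003 to 0.16 for *Mars2*, -0.058 to 0.044 for *Sars2*, -0.004 to 0.057 for *Lars2*, -0.013 to 0.084 for *Yars2*, -0.039 to 0.001 for *Vars2* and -0.033 to 0.003 for *Kars*. The cause was not tested.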
